A study of Mus musculus with 12 samples.

Results

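The 10 genes described here belong to the circadian clock or sit next to it, namely Nr1d1, Nr1d2, Nfil3, Dbp, Per1, Per2, Cry1, Arntl, Clock and Bhlhe40. They were chosen by gene symbol, with their fold changes in these same samples already known. Their differences between groups are therefore given as a description, with no p-value printed for them. Counts of those past a threshold are given further on, and nothing is read from them. All 10 were among the 11077 genes of the table that compares Th17 with Th0 cells and among the 11056 genes of the table that compares iTreg with Th0 cells. Naïve CD4+CD62L+ T cells came from the spleens of C57BL/6 mice that were 8 to 10 weeks old. Every culture, Th0 included, received plate-bound anti-CD3 and anti-CD28 at 1 µg/ml each. Th0 cells had no polarizing addition. Th17 cultures also had IL6 at 30 ng/ml, TGFβ1 at 5 ng/ml, and antibodies that block IL4 and IFNγ at 10 µg/ml each. iTreg cultures also had IL2 at 10 ng/ml and TGFβ1 at 10 ng/ml by the labels, while the study's methods give another TGFβ1 concentration. RNA was taken after 3 d from 4 separate cultures in each of the 3 groups, which makes 12 libraries, and the polarized cultures are not described as sorted. A level is therefore an average over the culture, and fewer cells of a type cannot be told apart from less RNA per cell. The labels give the day of harvest but no hour, and all groups were taken on the same day. A rhythm over the day was not tested, so each difference below holds for that time only.

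The mammalian clock is a transcriptional loop. BMAL1, encoded by Arntl, and CLOCK bind E-boxes as a pair and switch on the Per and Cry genes, whose proteins then inhibit the pair. In a second loop the REV-ERB repressors, encoded by Nr1d1 and Nr1d2, compete with the ROR activators for ROR elements, and Arntl and Nfil3 are classical targets of that competition. NFIL3 represses, and DBP and TEF activate, through a shared D-box. REV-ERBα is known to repress Nfil3, and both proteins are known to act in the development of Th17 cells.

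Since the ROR element and the E-box are the sites on which the proteins of both loops meet, the windows from 250 bases before to 50 bases after each start site (RefSeq, GRCm38.p6) were searched for them on both strands. Windows were present for 8 of the 10 genes. The ROR element was searched as TAGGTCA, which 2.61% of all 32851 mouse windows hold, and the E-box as CACGTG, which 7.15% hold. The other searches were the D-box as TTATGTAA (0.938% of windows) and as TTACGTAA (0.119%), the CRE, a cAMP response element, as TGACGTCA (1.79%), and RevDR2, the tandem REV-ERB site, as 2 copies of AGGTCA with any 2 bases between them (0.00913%). The ROR element lay in the Nfil3 window, on the reverse strand from position -12 to -6 relative to the start, and in 1 of the Arntl windows, from 30 to 36. They are shown first because REV-ERB and ROR proteins bind this element, and the mRNAs of Nr1d1 and Rora were far higher in polarized cells. Capitals mark the element, which reads as its reverse complement in Nfil3.
Nfil3, chr13:52981034-52981063, minus strand: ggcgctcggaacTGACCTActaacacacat
Arntl, chr7:113207529-113207558, plus strand: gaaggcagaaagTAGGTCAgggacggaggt
The E-box was present once in the window of Per1, at -166, and once in that of Cry1, at -60. Ciart, a repressor of BMAL1 and CLOCK that belongs to the wider pathway described further on, held 3, at -116, -58 and -44. Tef, a D-box activator of the same pathway list, held 1 in each of its windows, at -127 and -138. In polarized cells the mRNAs of Per1, Ciart and Tef were lower and that of Cry1 was higher, although the Per1 ranges of iTreg and Th0 cells overlapped. Windows of the other genes of that list are not described here. The windows of both members and of Ciart, which held most copies, are shown. Capitals mark CACGTG. By the GENCODE annotation the Nfil3 and Arntl elements lie in the first exon of the longest transcripts, while the stretches of Cry1 and Ciart lie before all exons of their genes and that of Per1 lies in an intron of its longer transcripts.
Per1, chr11:69098699-69098947, plus strand: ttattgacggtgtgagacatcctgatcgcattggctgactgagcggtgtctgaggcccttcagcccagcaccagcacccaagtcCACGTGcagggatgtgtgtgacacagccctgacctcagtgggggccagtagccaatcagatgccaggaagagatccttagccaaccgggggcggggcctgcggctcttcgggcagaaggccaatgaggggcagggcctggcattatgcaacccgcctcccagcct
Cry1, chr10:85185065-85185304, minus strand: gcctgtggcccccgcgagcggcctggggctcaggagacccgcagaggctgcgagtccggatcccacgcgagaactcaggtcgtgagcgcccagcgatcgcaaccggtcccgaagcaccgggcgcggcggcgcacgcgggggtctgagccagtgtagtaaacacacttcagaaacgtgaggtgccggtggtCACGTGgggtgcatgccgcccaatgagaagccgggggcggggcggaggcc
Ciart, chr3:95882252-95882478, minus strand: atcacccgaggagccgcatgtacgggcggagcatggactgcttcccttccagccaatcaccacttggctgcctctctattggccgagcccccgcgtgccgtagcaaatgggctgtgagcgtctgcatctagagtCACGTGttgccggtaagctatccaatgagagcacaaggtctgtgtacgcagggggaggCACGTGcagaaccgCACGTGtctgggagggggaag
The windows of Nr1d1, Nr1d2, Dbp and Clock held none of the searched letters. A match here is a string of letters, and no binding was measured. Whether any match bears on a difference in mRNA was not tested.

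The values are FPKM, in which fragments are divided by transcript length and by library size, so levels of different genes can be set beside each other within a group. Relative depth, read from the whole-read steps of genes under 1 FPKM and assuming libraries within 1.5 times of the first, ran from 0.843 to 1.08 of the median library in the Th17 table and from 0.825 to 1.19 in the iTreg table. The tables hold no counts, so the counting error of a single gene is not known. Column headings begin with M22, M29, M42 or M43, 1 of each per group. What the beginnings stand for is not given. The Th0 libraries are the same 4 in both tables, and they differ between the tables by a constant factor of 0.988 to 0.991, so Th17 and iTreg levels were not tested against each other. T cell genes were high in all libraries (summed Cd3e, Cd3g, Cd4 and Cd28, 355 to 1244 FPKM), but single genes differed between groups. Cd4 was at 68.1 ± 24.5 FPKM in Th17 against 208 ± 89.6 in Th0 cells, and at 158 ± 58.0 against 205 ± 88.7 in the iTreg table. Cd28 was at 150 ± 54.1 against 135 ± 57.8 FPKM in the Th17 table, and at 56.1 ± 20.8 in iTreg against 133 ± 57.4 in Th0 cells. The ranges overlapped in each case. Il17a, Il17f, Il23r, Ahr and Ccr6, markers of Th17 cells, summed to 362 to 939.7 FPKM in Th17 cells and 1.78 to 3.59 in Th0 cells. The 3 of them listed in the iTreg table, Il17f, Ahr and Ccr6, were also high in iTreg cells (summed 50.4 to 135 FPKM, against 1.71 to 3.36 in Th0). Gata3, the Th2 factor, was at 2.40 ± 0.674 FPKM in Th17 against 12.2 ± 2.91 in Th0 cells, and at 8.76 ± 1.30 in iTreg cells. Foxp3, the defining factor of regulatory T cells, was 62.0 to 91.7 FPKM in iTreg cells and 2.01 to 7.15 in Th0 cells. The other iTreg markers, Ctla4, Itgae, Il2ra and Ikzf4, were not higher in iTreg cells alone. In Th17 cells their means were 133, 12.9, 287 and 9.51 FPKM, against 38.8, 0.519, 134 and 4.87 in Th0, with overlap for Ikzf4. In iTreg cells they were 52.9, 9.53, 442 and 30.8 FPKM, against 38.4, 0.514, 133 and 4.82, with overlap for Ctla4. The Th17 library M43 stood apart, with Foxp3 at 42.5 FPKM against 0.499 to 4.50 in the other 3 Th17 libraries. Of the markers of CD8 T cells, B cells, myeloid cells and NK cells, Cd8b1, Cd79a and, in the Th17 table, Itgam were listed. Cd8b1 summed to 2.19 to 6.60 FPKM, Cd79a to 0.505 to 3.84 and Itgam to 0.0457 to 0.628 across the libraries. The part of these cells in the values below was not tested.

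Among the 10 genes, Nr1d1 (chr11:98767932-98775333, minus strand, GRCm38, as for the genes below), which encodes REV-ERBα, was the lowest member in Th0 cells and had the widest difference. It was at 0.483, 0.507, 0.586 and 0.542 FPKM in the Th0 libraries (M22, M29, M42 and M43 in this order, kept below). The Th17 libraries had 17.4, 11.4, 5.49 and 5.74 FPKM. The lowest Th17 library was thus far above the highest Th0 library, and the Th17 libraries differed among themselves more than those of any other member relative to their level. The means were 0.530 ± 0.0451 (SD, n = 4) in Th0 and 10.0 ± 5.64 in Th17 cells, an 18.9-fold ratio, and the ratio within a heading beginning ran from 9.35 in M42 to 36.1 in M22. In iTreg cells Nr1d1 was at 8.15, 5.82, 6.30 and 5.37 FPKM, a mean of 6.41 ± 1.22 and 12.2 times the Th0 mean of the same table. The iTreg libraries lay close together and none approached Th0. The log2(FPKM + 1) scale compresses differences from a level as low as that in Th0, and on it the differences were 2.71 (SE 0.31) in Th17 and 2.27 (SE 0.12) in iTreg cells. Of the 3077 exonic bases of Nr1d1, 263 (8.55%) also lie in exons of Thra, the thyroid hormone receptor α gene on the opposite strand, and the reads were counted without strand. In the union mode used, a read on exons of both genes is set aside as ambiguous if the annotation holds both. Thra rose from 3.15 ± 0.968 to 8.13 ± 2.71 FPKM in Th17 cells (n = 4, log2 difference 1.11, adjusted p = 0.0109, limma). In iTreg cells Thra was at 3.73 ± 1.13 against 3.12 ± 0.964 FPKM and did not pass the test (log2 difference 0.20, SE 0.20, adjusted p = 0.579, limma). Over the 8 libraries of a table Thra and Nr1d1 had a Pearson correlation of 0.94 in the Th17 table and 0.39 in the iTreg table. These values take Th0 and polarized libraries together, so they largely repeat the group differences. The part of the shared bases in the Nr1d1 values was not tested.

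Nr1d2 (chr14:18204054-18239127, minus strand), which encodes the other repressor REV-ERBβ, was higher in both polarized groups by a smaller ratio. Its Th0 libraries had 4.66, 6.75, 4.66 and 3.97 FPKM, and its Th17 libraries had 12.1, 10.2, 8.28 and 9.41. The iTreg libraries had 12.2, 13.0, 9.32 and 8.43 FPKM. Every polarized library was above every Th0 library, and the mean ratios were 1.99 in Th17 and 2.16 in iTreg cells (log2 differences 0.88, SE 0.16, and 0.98, SE 0.18). The REV-ERB mRNAs thereby changed their proportion. Nr1d1 stood at 0.110 ± 0.0272 of the Nr1d2 level in Th0 libraries, at 0.957 ± 0.393 in Th17 libraries and at 0.608 ± 0.107 in iTreg libraries (SD, n = 4 each).

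**Figure D1:**
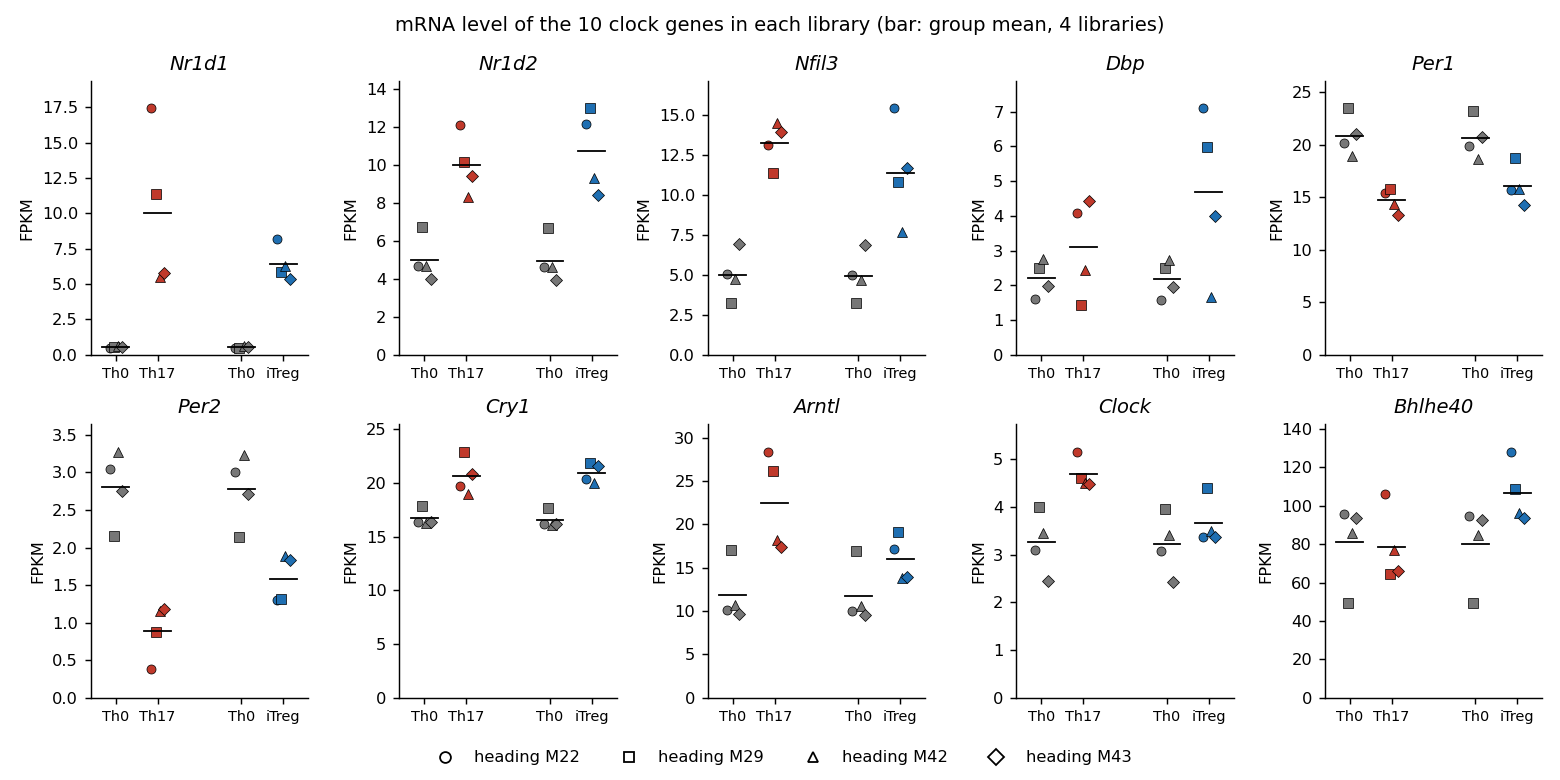
FPKM of each of the 10 genes (vertical axes, each starting at 0 and scaled to its gene) in the Th0 and Th17 libraries of the Th17 table and the Th0 and iTreg libraries of the iTreg table. Each point is 1 library, its shape gives the heading beginning, and the bar is the mean of 4 libraries. The Th0 libraries of Nr1d1 lie at 0.483 to 0.586 FPKM, while those of Dbp and Bhlhe40 share their range with the polarized libraries.

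Nfil3 (chr13:52967209-52981073, minus strand), the bZIP repressor that competes for the D-box, was higher in polarized cells, as the REV-ERB genes were. It was at 5.03, 3.26, 4.72 and 6.94 FPKM in Th0 cells and at 13.1, 11.4, 14.5 and 13.9 FPKM in Th17 cells. In iTreg cells it was at 15.4, 10.8, 7.69 and 11.7 FPKM. No polarized library fell into the Th0 range, although the iTreg library M42 came within 1 FPKM of the highest Th0 library. The means were 4.99 ± 1.51 and 13.2 ± 1.37 FPKM in the Th17 table, a ratio of 2.65 (log2 difference 1.28, SE 0.18). In the iTreg table they were 4.93 ± 1.49 and 11.4 ± 3.18, a ratio of 2.31 (log2 difference 1.06, SE 0.23).

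Dbp (chr7:45705088-45710203, plus strand), the activator on the same D-box and a direct output of the clock in many tissues, did not separate the groups. Its Th0 libraries had 1.59, 2.5, 2.77 and 1.98 FPKM, its Th17 libraries 4.09, 1.42, 2.45 and 4.43, and its iTreg libraries 7.10, 5.97, 1.65 and 4.0. It was higher than the Th0 library of the same heading beginning in 2 of 4 Th17 libraries and in 3 of 4 iTreg libraries, with within-heading ratios from 0.568 to 2.57 and from 0.604 to 4.51. Its log2 differences were 0.29 (SE 0.26) and 0.73 (SE 0.32). Dbp shares 539 of its 2993 exonic bases (18.0%) with Sphk2, a sphingosine kinase gene on the other strand. Sphk2 was at 13.1 ± 1.55 and 13.3 ± 1.80 FPKM in Th0 and Th17 cells and at 10.9 to 12.7 FPKM in iTreg cells, above Dbp in every library. Over those bases the reads of both genes cannot be told apart without strand. By the counting rule given for Nr1d1 such reads are set aside if the annotation holds both genes. The part of these bases in the Dbp values was not tested. Arntl shares 33 bases with Gm45355 and Bhlhe40 shares 118 (2.51%) with 0610040F04Rik, and neither of these genes was listed. The other 6 members share no exonic base with another gene.

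The activators were higher in Th17 cells. Arntl (chr7:113207465-113314126, plus strand) was at 10.1, 17.0, 10.7 and 9.65 FPKM in Th0 and at 28.4, 26.2, 18.2 and 17.3 FPKM in Th17 libraries. The lowest Th17 library was only just above the Th0 library M29, which itself stood well above the other 3 Th0 libraries. The means were 11.9 ± 3.46 and 22.5 ± 5.59 FPKM, a ratio of 1.89 (log2 difference 0.87, SE 0.22). In iTreg cells Arntl was at 17.2, 19.1, 13.8 and 13.99 FPKM, higher than the Th0 library of the same heading beginning in 4 of 4 cases, but the groups overlapped (log2 difference 0.44, SE 0.19). Clock (chr5:76209868-76304792, minus strand), whose protein pairs with BMAL1, was at 3.11, 4.0, 3.46 and 2.45 FPKM in Th0 and at 5.16, 4.60, 4.50 and 4.48 FPKM in Th17 cells. The Th17 libraries were all above the Th0 libraries, by a ratio of the means of 1.44 (log2 difference 0.43, SE 0.13). The iTreg libraries of Clock, at 3.37, 4.40, 3.49 and 3.37 FPKM, lay within and just above the Th0 range (log2 difference 0.15, SE 0.13). Arntl exceeded Clock 3.64 ± 0.547 times in Th0, 4.77 ± 0.953 times in Th17 and 4.39 ± 0.502 times in iTreg libraries, and these ranges overlapped.

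The repressors of the main loop did not move together. Per2 (chr1:91415982-91459324, minus strand) had the largest decrease of the 10 genes. It was at 3.04, 2.16, 3.28 and 2.75 FPKM in Th0 and at 0.378, 0.871, 1.15 and 1.18 FPKM in Th17 cells. Every Th17 library was below every Th0 library, and the M22 library, which had the highest Nr1d1, had the lowest Per2. The mean went from 2.81 ± 0.483 to 0.895 ± 0.372 FPKM, a ratio of 0.319 (log2 difference -1.02, SE 0.17). In iTreg cells Per2 was at 1.30, 1.32, 1.88 and 1.84 FPKM, again below all Th0 libraries, with a ratio of 0.571 (log2 difference -0.55, SE 0.13). Per1 (chr11:69095217-69109960, plus strand) was far more abundant and changed less. It was at 20.1, 23.4, 18.9 and 21.0 FPKM in Th0, at 15.4, 15.8, 14.3 and 13.3 in Th17 and at 15.6, 18.7, 15.7 and 14.2 in iTreg cells. The Th17 libraries were below all Th0 libraries (ratio 0.704, log2 difference -0.48, SE 0.11), while 1 iTreg library reached into the Th0 range (log2 difference -0.34, SE 0.11). Per2 stood at 0.137 ± 0.0346 of the Per1 level in Th0, at 0.0623 ± 0.0290 in Th17 and at 0.101 ± 0.0282 in iTreg libraries.

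Cry1 (chr10:85131700-85185064, minus strand), the partner of the PER proteins in repression, lay on the other side. It was at 16.4, 17.8, 16.3 and 16.4 FPKM in Th0, at 19.7, 22.9, 18.9 and 20.9 in Th17 and at 20.4, 21.9, 20.01 and 21.6 in iTreg cells. The groups did not overlap, but the ratios were small, 1.23 in Th17 and 1.27 in iTreg cells (log2 differences 0.28, SE 0.10, and 0.33, SE 0.08). Bhlhe40 (chr6:108660629-108666925, plus strand), the repressor DEC1 that competes with BMAL1 and CLOCK at E-boxes and that T cells induce on activation, was the most abundant member in all 3 groups. It was at 95.8, 49.6, 85.7 and 93.6 FPKM in Th0, at 106, 64.3, 77.2 and 66.1 in Th17 and at 128, 109, 96.1 and 93.8 in iTreg cells. The Th17 and Th0 libraries were interleaved (log2 difference -0.03, SE 0.24). All 4 iTreg libraries exceeded the Th0 library of the same heading beginning, by ratios of 1.01 to 2.21, and the groups overlapped (log2 difference 0.44, SE 0.21).

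**Figure D2:**
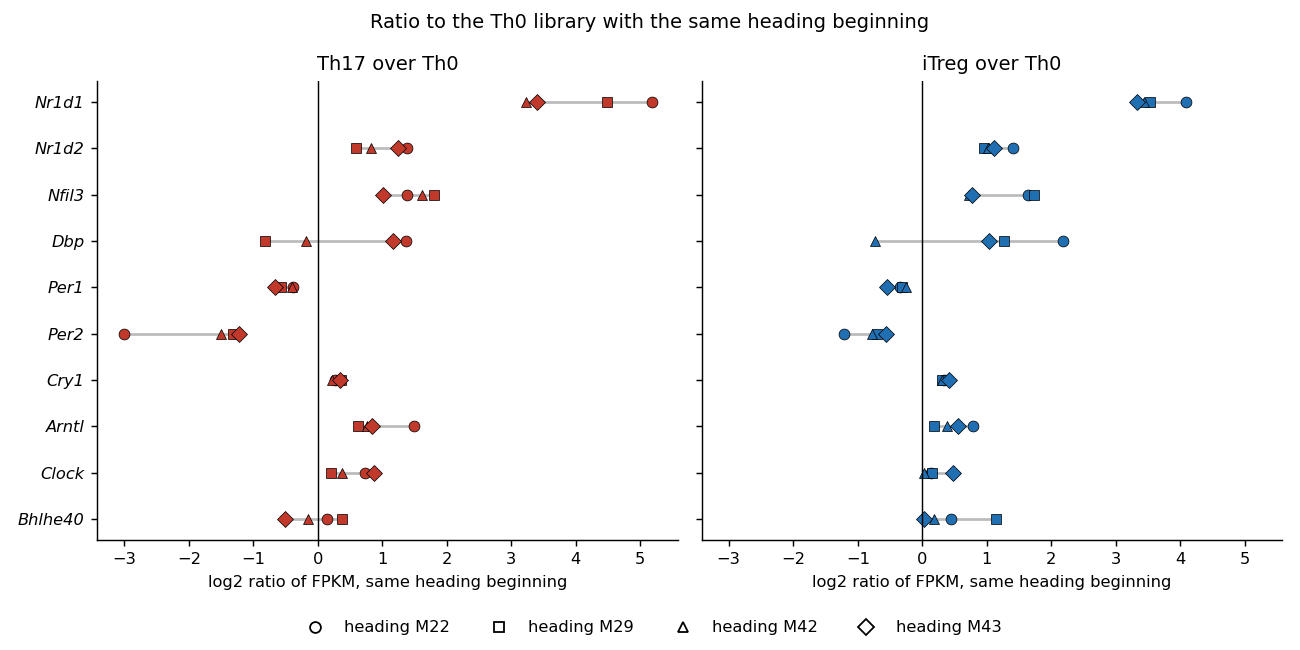
Log2 ratio of the FPKM of each Th17 library (left) or iTreg library (right) to that of the Th0 library whose column heading has the same beginning, with no pseudocount. Each point is 1 pair of libraries, the grey line joins the lowest and highest, and 0 means equal levels. The points of Nr1d1 lie farthest to the right, the leftmost point of each panel is the M22 pair of Per2, and in both panels the points of Dbp fall on both sides of 0.

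Counted over the 10 genes, in Th17 cells 5 were past an adjusted p of 0.05 upward (Nr1d1, Nr1d2, Nfil3, Arntl and Clock) and 2 downward (Per1 and Per2), where 10.6% and 8.69% of all 10269 tested genes were. With the heading beginning as a replicate block the count was 6 upward, with Cry1, and 2 downward, where 19.2% and 18.6% of all genes were. Groups that did not overlap were found for 6 upward and 2 downward, against 13.2% and 10.6% of all genes. In iTreg cells 4 were past it upward (Nr1d1, Nr1d2, Nfil3 and Cry1) and 1 downward (Per2), where 8.36% and 8.21% of 10208 tested genes were. With the block the count was 5 upward, with Arntl, and 2 downward, with Per1, where 20.9% and 20% of all genes were. Groups did not overlap for 4 upward and 1 downward, against 11.7% and 11% of all genes. Since the genes were selected on these same contrasts, nothing is read from these counts. The median log2 difference of the 10 genes was 0.36 in Th17 and 0.44 in iTreg cells, against -0.00071 and 0.01 over all tested genes. The Th0 libraries are shared, so the comparisons are not independent of each other. The Arntl and Clock counts in Th17 cells were lost when any of the libraries M22 or M29 of Th17, or M22, M42 or M43 of Th0, was left out, and that of Clock also without M42 or M43 of Th17. The Per2 and Cry1 counts in iTreg cells were both lost without any of M22 or M29 of iTreg or M22, M42 or M43 of Th0, and that of Cry1 also without M43 of iTreg. Without the Th17 library M43, in which Foxp3 was high, the log2 differences were 2.90 for Nr1d1, 0.90 for Nr1d2, 1.25 for Nfil3, 0.98 for Arntl, 0.45 for Clock, 0.28 for Cry1, -0.43 for Per1 and -1.10 for Per2. For the genes whose groups overlapped they were 0.14 for Dbp, against 0.29 with it, and 0.04 for Bhlhe40, against -0.03 with it. With any 1 library left out, that of Dbp ran from 0.14 to 0.52 in Th17 and from 0.52 to 1.06 in iTreg cells.

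The order of the levels shifted between groups. In Th0 cells the order from high to low was Bhlhe40, Per1, Cry1, Arntl, Nr1d2, Nfil3, Clock, Per2, Dbp and Nr1d1, and neighbours overlapped in their ranges from Cry1 to Arntl and from Nr1d2 through to Dbp. In Th17 cells it was Bhlhe40, Arntl, Cry1, Per1, Nfil3, Nr1d1, Nr1d2, Clock, Dbp and Per2. There the ranges of Arntl and Cry1 overlapped, as did those of Per1 and Nfil3, Nfil3 and Nr1d1, and Nr1d1 and Nr1d2. In iTreg cells it was Bhlhe40, Cry1, Per1, Arntl, Nfil3, Nr1d2, Nr1d1, Dbp, Clock and Per2, with overlaps from Per1 through to Nr1d2 and from Nr1d1 through to Clock. Per2 was the lowest member in both polarized groups, where Nr1d1 was the lowest in Th0.

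The wider pathway was read from a list of 51 genes in 4 roles, of which 46 were listed and 44 tested in each table. The list was not free of earlier results of these data. The p-values given for its genes therefore describe the differences and are not independent tests of them. In Th17 cells 4 of the 44 rose and 5 fell in limma's test (10 and 9 with the replicate block), and in iTreg cells 3 rose and 5 fell (7 and 11 with the block), where the shares of all tested genes are those given above. The median log2 difference over the list was -0.03 in Th17 and -0.09 in iTreg cells, against -0.00071 and 0.01 over all genes. Without the Th17 library M43 the counts in Th17 cells were again 4 and 5. Of the calls in Th17 cells, those of Cry2 and Csnk1e held in 1 and 2 of the 8 fits that each leave out a library (adjusted p up to 0.120 and 0.135, limma), and in iTreg cells those of Tef and Prkaa1 held in 1 and 2 of 8 (up to 0.118 and 0.0708). Cry2 was called without M43 of Th17, Csnk1e without M29 of Th0 or M43 of Th17, Tef without M29 of Th0, and Prkaa1 without M29 or M42 of Th0. The other 13 calls held in all 8 fits.

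Of the called genes, 4 of 9 in Th17 cells and 4 of 8 in iTreg cells were partners and paralogs of the 10 members. In that role 6 of 10 genes were listed and 5 tested. In Th17 cells 1 rose and 3 fell, where 10.6% and 8.69% of all tested genes did. In iTreg cells 2 rose and 2 fell, where 8.36% and 8.21% of all tested genes did. The list was chosen with earlier results of these data known, so nothing is read from these counts. Rora, an activator on the ROR element, was at 2.02, 1.37, 1.31 and 1.49 FPKM in Th0 and at 30.5, 22.2, 26.4 and 15.9 FPKM in Th17 libraries. It rose far beyond the spread of the libraries (log2 difference 3.25, SE 0.19, adjusted p = 1.54e-05, limma). In iTreg cells it reached 5.84 ± 0.918 FPKM (n = 4, log2 difference 1.43, SE 0.13, adjusted p = 0.000229, limma). The mRNAs of the REV-ERB repressors and of this activator of the ROR element were therefore all higher in the polarized cells. Npas2, a paralog of Clock that can pair with BMAL1, was at 2.15, 1.81, 2.73 and 3.32 FPKM in Th0 and at 9.71, 8.40, 9.87 and 9.09 FPKM in iTreg libraries of the same table. It rose in iTreg cells (log2 difference 1.57, SE 0.14, adjusted p = 0.000189, limma). In Th17 cells Npas2 was at 3.59 ± 0.941 against 2.53 ± 0.673 FPKM (n = 4) and passed the test only with the block (adjusted p = 0.194, and 0.0111 with the block, limma).

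Ciart, the E-box gene shown above, fell in both polarized groups. It was at 10.6, 10.8, 11.6 and 12.6 FPKM in Th0 and at 3.78, 5.58, 6.13 and 4.06 FPKM in Th17 libraries, with no overlap (log2 difference -1.09, SE 0.15, adjusted p = 0.00113, limma). In iTreg cells it was at 5.52, 6.67, 5.41 and 4.33 FPKM (log2 difference -0.93, SE 0.12, adjusted p = 0.00146, limma). Ciart was thus lower in polarized cells, as Per2 and Per1 were, while Cry1 was higher. Tef, the D-box activator related to Dbp, fell by 0.58 in Th17 (SE 0.12, adjusted p = 0.0120, limma) and by 0.35 in iTreg cells (SE 0.10, adjusted p = 0.0460, limma). Cry2, the paralog of Cry1, fell in Th17 cells, from 4.55 ± 0.949 to 2.94 ± 0.527 FPKM (n = 4, log2 difference -0.49, adjusted p = 0.0474, limma), and was at 3.65 ± 0.286 against 4.50 ± 0.947 FPKM in the iTreg table (adjusted p = 0.276, limma). Per3, another Per gene, was listed below the limit of 1 FPKM for testing, at 0.596 to 1.20 FPKM in Th0, 0.385 to 0.515 in Th17 and 0.435 to 0.605 in iTreg libraries. Arntl2, Rorb, Bhlhe41 and Hlf were not among the listed genes.

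**Figure D3:**
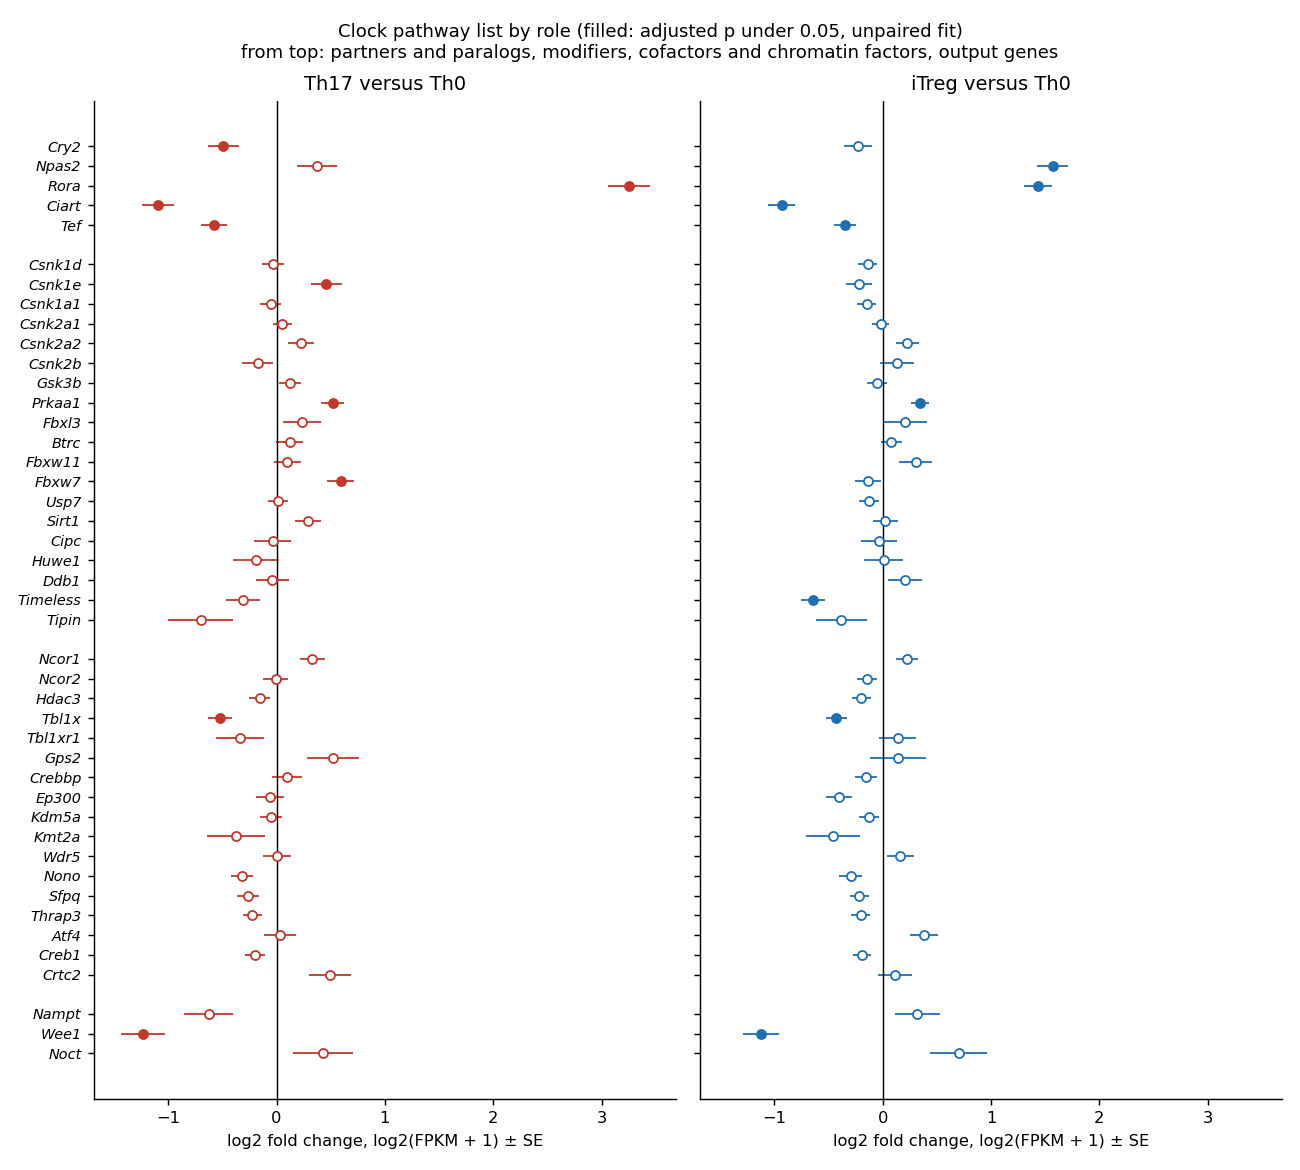
Log2 difference from Th0 on the log2(FPKM + 1) scale (horizontal axes) with its SE for the 44 tested genes of the clock pathway list, grouped by role, in Th17 cells (left) and iTreg cells (right), 4 libraries a group. Filled points have an adjusted p under 0.05 in the unpaired limma fit. The largest increases are those of Rora in Th17 cells and of Npas2 and Rora in iTreg cells, Ciart and Wee1 lie lowest in both panels, and most other genes lie within 0.5 of 0.

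Among 19 tested modifiers of clock proteins, 3 were called in Th17 cells, each upward, where 10.6% of all tested genes rose, and 4 rose and 1 fell with the block, where 19.2% rose and 18.6% fell. In iTreg cells 1 rose and 1 fell, where 8.36% and 8.21% of all tested genes did. With the block 3 rose and 2 fell there, where 20.9% and 20% of all tested genes did. The 3 without the block in Th17 cells were Fbxw7, an F-box protein of a ubiquitin ligase that targets REV-ERBα (7.43 ± 1.03 to 11.7 ± 1.38 FPKM, n = 4, log2 difference 0.59, adjusted p = 0.0112, limma), Prkaa1, a catalytic subunit of the AMP-activated kinase that marks CRY1 for degradation (log2 difference 0.52, adjusted p = 0.00899, limma), and Csnk1e, casein kinase 1ε, a PER kinase (log2 difference 0.46, adjusted p = 0.0494, limma). In iTreg cells Prkaa1 rose (log2 difference 0.35, adjusted p = 0.0250, limma) and Timeless, known for its part in replication as well as in the clock, fell from 29.9 ± 4.05 to 18.7 ± 0.931 FPKM (n = 4, log2 difference -0.64, adjusted p = 0.00540, limma). Fbxw7 was at 5.86, 6.03, 7.36 and 7.08 FPKM in iTreg libraries, inside or just below its Th0 range in that table, 6.47 to 8.79. Of 17 corepressors, coactivators and chromatin factors, 1 fell in each comparison, where 8.69% and 8.21% of all genes fell. With the block 3 rose and 3 fell in Th17 cells, where 19.2% and 18.6% of all genes did. In iTreg cells 1 rose and 6 fell with the block, where 20.9% and 20% of all genes did. The one called without the block was Tbl1x, a subunit of the NCoR corepressor that REV-ERB proteins recruit, which fell by 0.52 in Th17 (adjusted p = 0.0104, limma) and by 0.43 in iTreg cells (adjusted p = 0.0164, limma). Of 3 output genes Wee1, a kinase that delays mitosis and a known E-box target of the clock, fell from 13.4 ± 1.09 to 5.34 ± 1.96 FPKM in Th17 cells (n = 4, log2 difference -1.23, SE 0.21, adjusted p = 0.00355, limma) and to 5.68 ± 1.64 FPKM in iTreg cells (log2 difference -1.12, SE 0.17, adjusted p = 0.00244, limma). Noct, a deadenylase-like clock output listed under its older symbol, passed the test only with the block, upward (adjusted p = 0.00843 in Th17 and 0.000376 in iTreg cells, limma, log2 differences 0.43 and 0.70).

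Other genes of the list also passed only with the heading beginning as a replicate block, each with the same direction in 4 of 4 heading beginnings. Tipin, which encodes the partner of TIMELESS in replication, was lower in both polarized groups, with log2 differences of -0.70 in Th17 (adjusted p = 0.146, and 0.0139 with the block, limma) and -0.38 in iTreg cells (adjusted p = 0.322, and 0.00676 with the block, limma). Nampt, the NAD salvage enzyme and a clock output, was lower in Th17 cells, with a log2 difference of -0.63 (adjusted p = 0.0946, and 0.0194 with the block, limma). In iTreg cells the Nampt difference had the other sign, 0.32, and passed in neither fit (adjusted p = 0.354, and 0.150 with the block, limma). Nono and Sfpq, RNA-binding proteins known to associate with PER complexes, were lower in both groups, with log2 differences of -0.32 and -0.26 in Th17 and -0.30 and -0.22 in iTreg cells (adjusted p with the block 0.0201, 0.0329, 0.0166 and 0.0360, limma). In Th17 cells the others were all higher, namely Gps2, Crtc2, Ncor1 and Sirt1, with log2 differences of 0.52, 0.49, 0.33 and 0.29 (adjusted p with the block 0.00830, 0.00434, 0.0228 and 0.0420, limma). In iTreg cells Kmt2a, Ep300 and Hdac3 were lower, with log2 differences of -0.46, -0.40 and -0.20 (adjusted p with the block 0.00513, 0.00604 and 0.0495, limma). Atf4, Fbxw11 and Ddb1 were higher there, with log2 differences of 0.38, 0.30 and 0.21 (adjusted p with the block 0.0288, 0.0358 and 0.0362, limma). Without the block their adjusted p ran from 0.0510 to 0.435.

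Libraries with the same heading beginning varied together across groups. Cases among the 10 genes where all 3 groups had the same sign are picked out below, while many others had mixed signs. The share of such cases over all genes was not computed. This variation was not used to choose the genes. Arntl was above its group mean in the M29 library of all 3 groups (mean deviation 0.34 on the log2 scale) and below it in M42 and M43 of all 3 groups (-0.18 and -0.25). Nr1d2 followed the same order, at 0.23 in M29, -0.15 in M42 and -0.21 in M43, again with the same sign in all 3 groups. Cry1 (0.10) and Per1 (0.16) were likewise above their means in M29 of all 3 groups. Nfil3 lay the other way in M29, at -0.23, and above its mean in M43, at 0.20, in all 3 groups. Bhlhe40 was above its mean in M22 of all 3 groups, at 0.34. A limma F test of the heading beginnings, with the group in the model, called 2 of the 10 genes in the iTreg table, Nr1d2 (adjusted p = 0.0302) and Arntl (adjusted p = 0.0490), where 35.2% of all tested genes were called. In the Th17 table the same limma test called 0 of the 10, where 17.6% of all genes were called. There 1 of the 10, Bhlhe40, had an unadjusted p under 0.05, and its adjusted p of 0.105 was the smallest. The same test called 4 of the 44 pathway genes in the Th17 table and 10 in the iTreg table. The share of called members was thus not above the background in either table.

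**Figure D4:**
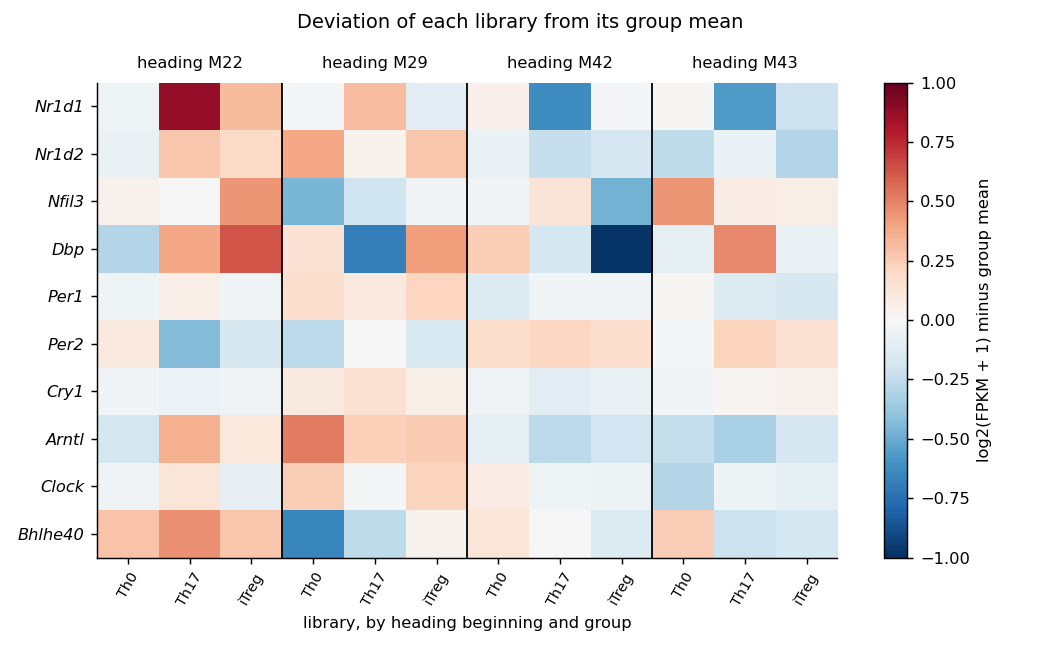
Deviation of each library from the mean of its group on the log2(FPKM + 1) scale (colour) for the 10 genes (rows) in 12 libraries (columns), ordered by heading beginning and, within it, by Th0, Th17 and iTreg, with Th0 taken from the Th17 table. Arntl and Nr1d2 are above their means in all 3 M29 libraries and below them in all M42 and M43 libraries, while the signs for Dbp are mixed within every heading beginning.

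Genes whose levels followed those of Nr1d1 most closely over the 8 libraries of each table were sought among the 10079 genes tested in both, ranked by the lower of the Pearson correlations of log2(FPKM + 1). For Nr1d1 they were Olfm2 (0.98 in the Th17 table and 0.99 in the iTreg table), Jup, the junction protein plakoglobin (0.98 in both), and Rexo4 (0.98 in both). For Nfil3 they were Uhrf1bp1 (0.96 and 0.95), Rrp1 (0.95 and 0.98) and Cpd, carboxypeptidase D (0.96 and 0.95). For Bhlhe40, which did not separate the groups, the highest were lower, Top1mt (0.86 and 0.87), Pmaip1 (0.85 and 0.93) and Snora7a (0.89 and 0.84). The 8 points of a table fall into a Th0 and a polarized cluster for Nr1d1 and Nfil3, and the tables share the 4 Th0 libraries, so these values order genes by likeness and test nothing.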

How the data were processed

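Per the labels and the study's methods, the authors aligned 100-nt read pairs to mm10 with TopHat2 2.0.14, counted reads on exons with HTSeq in union mode without strand, and fitted edgeR. They deposited 2 gene tables of FPKM values, 1 column a library. How FPKM was derived from the counts, and the annotation used, are not given in the sources used here. Beside FPKM, the deposited tables also hold the authors' own log2 fold changes and log2 CPM, likelihood-ratio scores, and p-values with FDR, none of which were used. No per-sample column was left out (0 unused).

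Genes that exceeded 1 FPKM in 4 or more of a table's 8 libraries were tested with limma 3.58.1 (R 4.3.3) on log2(FPKM + 1), within each table, with Benjamini-Hochberg adjustment over all tested genes and a threshold of 0.05. The fit was unpaired, since the columns carry no experiment number. The study's methods use a pair-wise design. Libraries sharing a heading beginning deviated together (correlation over genes 0.450 to 0.784 in the Th17 table and 0.662 to 0.769 in the iTreg table, against at most 0.434 and 0.248 for other pairs), so the block fit is printed where it changed a call of a member or list gene. The unpaired p-values set a group difference against the spread among the 4 cultures within each group, with variances drawn toward those of all genes. Those of the block fit use the spread left after the heading beginnings are removed. The F test sets the heading beginnings against that same remaining spread. The procedure was also run on simulated libraries that vary independently of each other. The libraries here share variation by heading beginning, so that run does not show how the unpaired fit behaves under it. Named were the 10 members, every pathway gene past the threshold with a log2 change over 0.5, all listed clock partners, the 3 genes most like Nr1d1, Nfil3 and Bhlhe40, and genes sharing exonic bases with a member (GENCODE, GRCm38). Csnk1e, Foxp3 and list genes called only with the block were named after their values were seen. An item among the list and marker genes is not reported here, and the counts leave it out. The members, lists and tests were chosen with earlier results of these data known. Alternatives covered pseudocount, filter, variance trend, threshold, scaling, block and each library left out.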

Additional observations from a re-analysis of the deposited data

Results flagged for a closer look

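In 66 groups of 4 libraries, 22 genes in 3 groups each, the highest or lowest library was compared with the other 3 by Dixon's criterion. 5 groups exceeded it, and chance gives about 1 in 20 groups. Arntl was at 17.0 FPKM in the Th0 library M29, where the others had 9.65 to 10.7, and Cry1 was at 17.8 FPKM in the same library, where the others had 16.3 to 16.4. Clock was at 4.40 FPKM in the iTreg library M29, where the others had 3.37 to 3.49. Cry2 was at 3.72 FPKM in the Th17 library M43, where the others had 2.59 to 2.77. Foxp3 was at 42.5 FPKM in that same Th17 library, where the others had 0.499 to 4.50.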

How the results depend on the processing

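At a threshold of 0.01 the calls over all genes were 995 in Th17 and 778 in iTreg cells, against 1983 and 1691 at 0.05, those of the pathway list 4 against 9 and 5 against 8, those of the 10 genes 4 against 7 and 2 against 5, and those of the F test of heading beginnings 279 against 1805 and 1199 against 3591. With the replicate block the calls over all genes were 3882 and 4170 and those of the pathway list 19 and 18, against 9 and 8, and no member lost its call. With 1 library left out, the calls ran from 1364 to 2237 and from 1140 to 1521 over all genes, from 7 to 10 and from 6 to 8 in the list, and from 5 to 7 and from 3 to 6 for the 10 genes. The 6 in iTreg cells came without M29 of Th0, which added Arntl, or without M42 of iTreg, which added Dbp. Of 240 alternative values of member differences, 4 moved by more than 1 SD, those of Nr1d1 (3.84 and 3.37) and Per2 (-1.63 and -0.78) with a pseudocount of 0.1, and 5 changed sign, all of Bhlhe40 in Th17 cells with 1 library left out (highest value 0.06). With an intensity trend Clock was not called in Th17 cells. Rescaling to a median log2 ratio of 0 changed no member's call. Without counts, the counting error behind low values such as Nr1d1 and Per3 in Th0 cells is not known.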
